A study of Mus musculus with 28 samples.

Results

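The 55 genes described here carry cells through mitosis, from the kinases that start it to the motors, kinetochore proteins, condensin subunits and contractile ring regulators that divide the chromosomes and the cell. They were chosen by gene symbol and are 55 of the 24421 symbols in a table of read counts from mouse thymocytes. All 55 were found, and all 55 passed the filter on low counts that left 14371 genes for testing. Messenger RNA was measured by RNA sequencing in 28 libraries from 3 genotypes and 2 sorted subsets. These were DN2/3 and DN4, early and later double-negative thymocytes, that is, cells with neither CD4 nor CD8 on their surface. Wild type was C57BL/6, with 4 libraries at each stage. Lmo2tg carried a transgene for Lmo2, an adaptor protein of LIM domains and an oncogene of T-cell leukemia, with 5 libraries at each stage. The group labelled Lmo2tg; Ldb1-KO, called Ldb1-KO below, carried the same transgene and a deletion of Ldb1, the LIM domain-binding cofactor of Lmo2, again with 5 libraries at each stage. The deletion was made from a floxed Ldb1 allele, and the growth protocol names Lck-Cre, Rag1-Cre and IL-7Ra-Cre mice, a Rosa26-EYFP reporter and CD45.1 congenic mice. The sources used here do not give the Cre that acted in each sample, the promoter of the Lmo2 transgene, the age of the mice or whether replicates were separate animals, so p-values measure only the spread between these libraries, which may be technical.

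A cell enters mitosis when cyclin-bound Cdk1 becomes active. Aurora and Polo kinases then build the spindle, the checkpoint proteins hold back the anaphase-promoting complex (APC/C) until each kinetochore is attached, and separase then cuts the cohesin that holds sister chromatids together. Transcripts of this program accumulate in G2 and M phase, so their level in a tissue is widely read as a mark of dividing cells. In the thymus, DN3 cells that have made a working T-cell receptor beta chain divide rapidly as they become DN4 cells. In RNA from a whole sorted sample, fewer dividing cells and less RNA per dividing cell cannot be told apart.

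Library totals spanned 28.1 to 106.9 M counts (M, mega). Lmo2 followed the labels, at 0 to 0.41 CPM in wild type and 25.3 to 68.9 CPM in the transgenic libraries, where CPM is counts per M counts of the library after TMM scaling. In Ldb1-KO, part of the Ldb1 transcript was still there, with single libraries at 57.1 to 120.0 CPM at DN2/3 and 6.11 to 54.7 CPM at DN4 against 246 to 478 CPM in Lmo2tg. Il2ra, the CD25 gene that thymocytes switch off between DN3 and DN4, was at 606 to 1951 CPM in the DN2/3 libraries and 25.1 to 131 CPM in the DN4 libraries. Within DN2/3 it was at 1357 to 1654 CPM in wild type, 606 to 1000.3 in Lmo2tg and 1053 to 1951 in Ldb1-KO, and Ptcra, the pre-T-cell receptor alpha gene, was at 163 to 198, 22.2 to 44.8 and 53.9 to 136 CPM. The labels also call these cells CD4 T cells. The surface markers CD4 and CD8 should be absent from this gate. Cd4 transcript was at 4.08 to 12 CPM in wild type DN4, 13.4 to 422 in Lmo2tg DN4 and 23.6 to 329 in Ldb1-KO DN4, and Cd8a was at 19.7 to 57.5, 161 to 742 and 136 to 713 CPM, so every transgenic DN4 library was above every wild type DN4 library for both. For Cd4, 2 libraries stood above 300 CPM, Lmo2tg DN4 replicate 1 at 422 CPM and Ldb1-KO DN4 replicate 2 at 329 CPM. Wild-type library names have a pattern of their own, so library series and transgene cannot be told apart.

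Many mitosis genes share short promoter elements: the cell cycle homology region, read here as TTTGAA, and CCAAT boxes bound by NF-Y. RefSeq promoter windows (GRCm38.p6, 250 bases before to 50 after each start site) were matched for 46 of the 55 members, in 50 windows. TTTGAA, searched on both strands, was in 34 of the 50 member windows (68%), and in 17.9% of all 32851 windows. CCAAT was in 40 of 50 (80%) against 37.4% of all windows, and 2 or more CCAAT in 25 of 50 (50%) against 11.7%. Both elements together were in 30 of 50 member windows (60%) and 6.95% of all windows, and neither was in 6 of 50 (12%) and 51.7% of all. The 2 elements overlapped at 1 place in the member windows, and a match is a string of letters, not a measured site. The first 4 windows below hold both elements and belong to the kinase, the cyclin and the APC/C partners at the centre of the results. Cdc25b and Pttg1 follow because their RNA levels went apart from the other members: the Cdc25b window has 1 CCAAT and no TTTGAA, and the Pttg1 window has neither. Other members share these patterns and were not higher in Lmo2tg at DN4: Birc5, Mad2l1, Ncaph, Nuf2 and Nusap1 have neither element (log2 folds -0.91, -0.65, -0.63, -0.50 and -0.57), and Nek2, Ccnb1 and Cenpe have CCAAT without TTTGAA. No window was matched for Smc4. All of the Pttg1 window lies inside the gene as annotated in GENCODE M21 (chr11:43420250-43426251), so sequence before that annotated start was not searched. Capitals mark TTTGAA or CCAAT on either strand (TTCAAA and ATTGG on the strand shown), and each sequence runs 5′ to 3′ on the strand of its gene.
Cdk1 (chr10:69352863-69353162, minus strand): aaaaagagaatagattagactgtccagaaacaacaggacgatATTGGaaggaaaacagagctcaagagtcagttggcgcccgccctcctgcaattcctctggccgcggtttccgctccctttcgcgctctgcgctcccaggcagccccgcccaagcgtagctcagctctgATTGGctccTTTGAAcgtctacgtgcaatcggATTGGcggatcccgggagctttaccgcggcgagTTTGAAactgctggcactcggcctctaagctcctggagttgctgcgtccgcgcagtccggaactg
Ccnb2 (chr9:70421505-70421804, minus strand): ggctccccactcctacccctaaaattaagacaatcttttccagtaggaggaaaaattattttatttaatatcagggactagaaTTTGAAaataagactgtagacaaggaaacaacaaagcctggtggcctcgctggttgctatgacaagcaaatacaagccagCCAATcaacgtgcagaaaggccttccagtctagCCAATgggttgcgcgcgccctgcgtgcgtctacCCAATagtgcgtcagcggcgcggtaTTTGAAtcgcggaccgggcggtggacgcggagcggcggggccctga
Cdc20 (chr4:118437294-118437593, minus strand): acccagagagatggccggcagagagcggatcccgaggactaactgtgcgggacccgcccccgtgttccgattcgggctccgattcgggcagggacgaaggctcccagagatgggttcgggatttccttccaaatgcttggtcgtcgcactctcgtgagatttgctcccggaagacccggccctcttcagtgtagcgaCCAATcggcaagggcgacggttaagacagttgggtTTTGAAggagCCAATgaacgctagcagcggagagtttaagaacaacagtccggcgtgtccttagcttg
Ube2c (chr2:164769679-164769978, plus strand): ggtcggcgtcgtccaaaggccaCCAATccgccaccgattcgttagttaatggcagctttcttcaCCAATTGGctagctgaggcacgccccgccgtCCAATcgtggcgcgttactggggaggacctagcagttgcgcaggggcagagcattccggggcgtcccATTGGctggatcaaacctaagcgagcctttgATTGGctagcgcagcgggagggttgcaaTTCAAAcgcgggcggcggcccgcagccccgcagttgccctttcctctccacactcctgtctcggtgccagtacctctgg
Cdc25b (chr2:131186698-131186997, plus strand): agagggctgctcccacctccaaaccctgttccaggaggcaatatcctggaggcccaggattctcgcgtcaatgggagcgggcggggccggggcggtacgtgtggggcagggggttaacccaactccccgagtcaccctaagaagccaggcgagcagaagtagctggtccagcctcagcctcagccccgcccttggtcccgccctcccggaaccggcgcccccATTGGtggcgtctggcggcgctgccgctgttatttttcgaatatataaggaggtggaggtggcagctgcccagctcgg
Pttg1 (chr11:43425932-43426231, minus strand): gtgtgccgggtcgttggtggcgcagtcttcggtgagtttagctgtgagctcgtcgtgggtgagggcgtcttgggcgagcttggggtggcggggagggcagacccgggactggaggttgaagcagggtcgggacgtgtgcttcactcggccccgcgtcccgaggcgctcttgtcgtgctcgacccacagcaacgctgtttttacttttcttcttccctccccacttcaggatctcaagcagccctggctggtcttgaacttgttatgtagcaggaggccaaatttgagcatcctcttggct

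In wild type, nearly the whole set was higher at DN4 than at DN2/3. The levels of the 55 members summed to 4942, 4935, 5190.0 and 5285 CPM in the 4 wild type DN2/3 libraries and to 12709, 11891, 13287 and 12615 CPM at DN4. Each DN4 library was thus 2.57, 2.41, 2.56 and 2.39 times its DN2/3 partner of the same replicate number. Of the 55 members, 53 rose (all but Pttg1 and Smc4), with a median log2 fold of 1.43, and in these 53 every DN4 library stood above every DN2/3 library. Among all genes tested, 21.1% were called higher and 24.9% had every library higher, with a median log2 fold of -0.07. The ubiquitin-conjugating enzyme gene Ube2c rose most (log2 fold 1.97, SE 0.34, adjusted p = 5.22e-05), and Kif23, a motor of the central spindle, rose least among the 53 (log2 fold 0.92, SE 0.23, adjusted p = 0.00196).

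In Lmo2tg, the stage difference was smaller than in wild type, by a test given with the Lmo2tg effects below, and it varied between libraries. The summed level was 4542, 9913, 6447, 9122 and 5884 CPM at DN2/3 and 5602, 9844, 8414, 11649 and 8288 CPM at DN4, in the order of replicates 1 to 5. The 2 stages overlapped, and the DN4 to DN2/3 ratios of replicates 1 to 5 were 1.23, 0.99, 1.31, 1.28 and 1.41, with 44, 16, 33, 53 and 54 of the 55 members higher at DN4. Replicates 1 and 2 show the spread: replicate 1 was the lowest library of its group at both stages, and replicate 2 was the highest of Lmo2tg at DN2/3. None of the 55 members was called by edgeR's quasi-likelihood test (median log2 fold 0.24), although 7 had an unadjusted p below 0.05, and DESeq2 called 0. The background was 8.32% of all genes called higher and 7.04% lower (median 0.00). Replicate numbers pair the 2 stages within a genotype, and with the replicate as a block 25 members were called higher (18.6% of all genes), led by Cenpe (log2 fold 0.50, SE 0.08, adjusted p = 0.000258), Bub1 (log2 fold 0.57, SE 0.10, adjusted p = 0.000385) and Kif15 (log2 fold 0.50, SE 0.09, adjusted p = 0.000495). Without Lmo2tg DN2/3 replicate 2 the unblocked count was 11, and it was 2 without Lmo2tg DN4 replicate 1 and 1 without Lmo2tg DN4 replicate 4 or 5. Of all genes, 11.1% were called higher and 9.29% lower without Lmo2tg DN2/3 replicate 2, and 5.80% and 5.21% without Lmo2tg DN4 replicate 1.

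In Ldb1-KO the members were again higher at DN4. The summed level was 5858, 7037, 8243, 6692 and 5973 CPM at DN2/3 and 13118, 12494, 13980.0, 11164 and 11272 CPM at DN4, without overlap. The ratios of replicates 1 to 5 were 2.24, 1.78, 1.70, 1.67 and 1.89, each below the lowest wild-type ratio and each above the highest Lmo2tg ratio. All 55 members were higher at DN4 in every numbered pair. Of the 55, 51 rose (all but Cdc25b, Pttg1, Cenpm and Smc4), with a median log2 fold of 0.93, against 12.3% of all genes called higher (median -0.02). The kinetochore gene Spc25 rose most (log2 fold 1.25, SE 0.23, adjusted p = 0.000227), and Kif23 rose least (log2 fold 0.60, SE 0.20, adjusted p = 0.0277). In 48 members the stages did not overlap, which held for 11.0% of all genes. With the replicate block, Cdc25b, Cenpm and Smc4 were called as well.

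**Figure D1:**
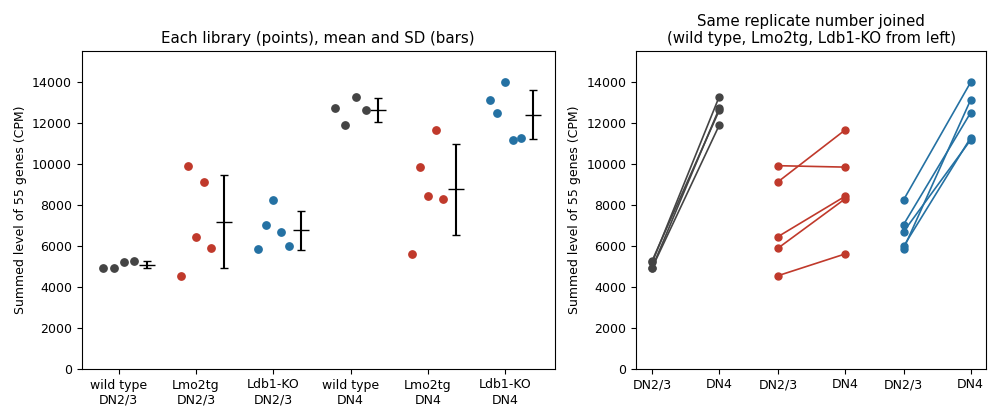
Summed CPM of the 55 members (y axis, linear from 0) in each of the 28 libraries, by genotype and stage, with bars for mean and SD and, on the right, lines joining DN2/3 and DN4 libraries of the same genotype and replicate number. Wild type rises from between 4935 and 5285 to between 11891 and 13287 CPM, while the Lmo2tg lines are flatter and span 4542 to 11649 CPM.

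At DN2/3, Lmo2tg was compared with wild type, a comparison in which library series and transgene cannot be told apart. There, 14 of the 55 members were higher in Lmo2tg and none lower, with a median log2 fold of 0.51. Of all genes, 15.1% were called higher and 14.4% lower, and the median was 0.01. By role, 6 of 7 spindle and cytokinesis genes were called, led by the RhoA exchange factor gene Ect2 (log2 fold 1.07, SE 0.19, adjusted p = 0.000101), with 3 of 11 kinetochore genes, 2 of 7 in the cyclin group, 2 of 4 around the APC/C and 1 of 8 kinesin genes. None of the 7 kinase and passenger complex genes, the 4 checkpoint genes or the 7 condensin and chromosome genes was called. Their median log2 folds were still 0.51, 0.42 and 0.50, with every gene above 0, and that of the spindle and cytokinesis genes was 0.71. Cdc25b rose most of all members (log2 fold 2.10, SE 0.18, adjusted p = 1.43e-09). In 3 members, Cdc25b, Ect2 and Pttg1, every Lmo2tg library was above every wild-type library, which held for 13.2% of all genes. The count depended on single libraries: it was 40 without Lmo2tg DN2/3 replicate 1, 6 and 7 without its replicates 2 and 4, and 7, 6, 8 and 9 without wild type DN2/3 replicates 1 to 4 in turn. A fit of the compared groups alone called 8, with 15.7% of all genes higher. Genes of the DN stages moved beside this result: 7 of 10 were lower and 1 higher in Lmo2tg at DN2/3, with a summed level of 4357 to 5883 CPM against 7862 to 8738 CPM in wild type. The part of that shift in the mitosis result was not tested.

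At DN4 the direction was the opposite. Of the 55 members, 37 were lower in Lmo2tg than in wild type and 3 were higher (Cdc25b, Smc4 and Pttg1), with a median log2 fold of -0.65. The background was 23.5% of all genes called lower and 28.9% higher, with a median of 0.07. All 7 kinase and passenger complex genes and 7 of 8 kinesin genes fell, and so did 5 of 7 genes of the cyclin group and 6 of 11 kinetochore genes. The largest falls were Spc24 (log2 fold -1.19, SE 0.27, adjusted p = 0.000727), Plk1 (log2 fold -1.03, SE 0.32, adjusted p = 0.00873) and Aurkb (log2 fold -1.01, SE 0.30, adjusted p = 0.00649). In 22 members every Lmo2tg library was below every wild-type library (13.9% of all genes), and in 2 every one was above (16.1%). Without the 2 libraries with over 300 CPM of Cd4, 26 members were called lower and 3 higher, with 19.9% of all genes lower and 25.7% higher.

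The difference between these 2 effects was tested in the same model. The effect of Lmo2tg was lower at DN4 than at DN2/3 in 48 of the 55 members and higher in none, with a median of -1.19 on the log2 scale. Of all genes, 11.0% were called lower and 14.7% higher (median 0.08). Ube2c had the largest difference (log2 fold -1.72, SE 0.44, adjusted p = 0.00789). The 7 members without a call were Cenph, Cenpk, Cenpm, Ncapg, Smc2, Pttg1 and Smc4. With the replicate block the count was 53 (23.7% of all genes), all but Pttg1 and Smc4.

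Comparing Ldb1-KO with Lmo2tg asks what the loss of Ldb1 changes when the transgene is present. At DN2/3, 2 of 55 members were lower in Ldb1-KO, Cdc25b (log2 fold -0.88, SE 0.16, adjusted p = 0.000238) and Pttg1 (log2 fold -0.42, SE 0.11, adjusted p = 0.00807), and none was higher. The median log2 fold was -0.09, and 7.22% of all genes were called lower and 8.87% higher (median -0.01). At DN4, 18 members were higher in Ldb1-KO and 1, Pttg1, was lower (median 0.61), against 5.85% of all genes higher and 8.71% lower (median -0.02). The largest rises were Spc25 (log2 fold 0.98, SE 0.23, adjusted p = 0.00419), Ccna2 (log2 fold 0.82, SE 0.23, adjusted p = 0.0157) and Hmmr (log2 fold 0.78, SE 0.19, adjusted p = 0.00551). The calls took in 6 of 11 kinetochore genes and 3 of 4 checkpoint genes, and 9 members had every Ldb1-KO library above every Lmo2tg library (3.64% of all genes).

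That DN4 count rests on few libraries. It was 2 higher and 0 lower without the 2 libraries of high Cd4, 3 higher and 0 lower in a fit of the compared groups alone, and 43 higher and 1 lower without Lmo2tg DN4 replicate 4, the highest Lmo2tg library. Of all genes, 4.25%, 2.04% and 8.44% were called higher in these 3 fits. Without Lmo2tg DN4 replicates 1, 3 and 5 in turn it was 4, 9 and 7 higher with 2, 1 and 1 lower. Without replicate 1, 5.36% of all genes were called higher and 8.25% lower. Without Ldb1-KO DN4 replicates 1, 2 and 3 in turn it was 7, 6 and 6 higher with 1 lower each time. With the replicate block more members were called than in the main fit, as given below, with 8.13% of all genes higher and 9.96% lower. The difference in the Ldb1-KO effect between stages was not called for any member by edgeR's quasi-likelihood test (median 0.68), with 32 at an unadjusted p below 0.05 and 0 called by DESeq2, against 0.132% of all genes called higher and 1.22% lower (median -0.04). It was called higher for 52 members with the replicate block (6.25% of all genes), all but Pttg1, Cenpk and Smc4. Without Lmo2tg DN4 replicate 4 the unblocked count was 13.

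Against wild type, Ldb1-KO at DN2/3 had 5 members higher, Ccnb1, Cdc25b, Bub1, Ect2 and Hmmr, and none lower (median log2 fold 0.43), with 6.98% of all genes called higher and 2.58% lower (median -0.01). In 27 members every Ldb1-KO library was above every wild-type library (11.3% of all genes). The count was 36 in a fit of the compared groups alone, where 14.2% of all genes were higher. It was 3 without any one of wild type DN2/3 replicates 1 to 4 (4.15% to 4.97% of all genes higher) or Ldb1-KO DN2/3 replicates 2 and 3. At DN4, Cdc25b and Smc4 were higher and none was lower (median -0.13), against 18.2% of all genes higher and 14.4% lower (median 0.04). Every Ldb1-KO library was lower in 12 members (16.4% of all genes) and higher in 3 (16.8%). That count of 2 was 1 without wild type DN4 replicate 1, 2 or 4 or Ldb1-KO DN4 replicate 1, 4 or 5, and the compared groups alone gave 5 higher and 16 lower, where 24.5% of all genes were higher and 21.7% lower. The 2 comparisons with Lmo2tg and the 2 with wild type share control libraries and are not independent of each other.

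**Figure D2:**
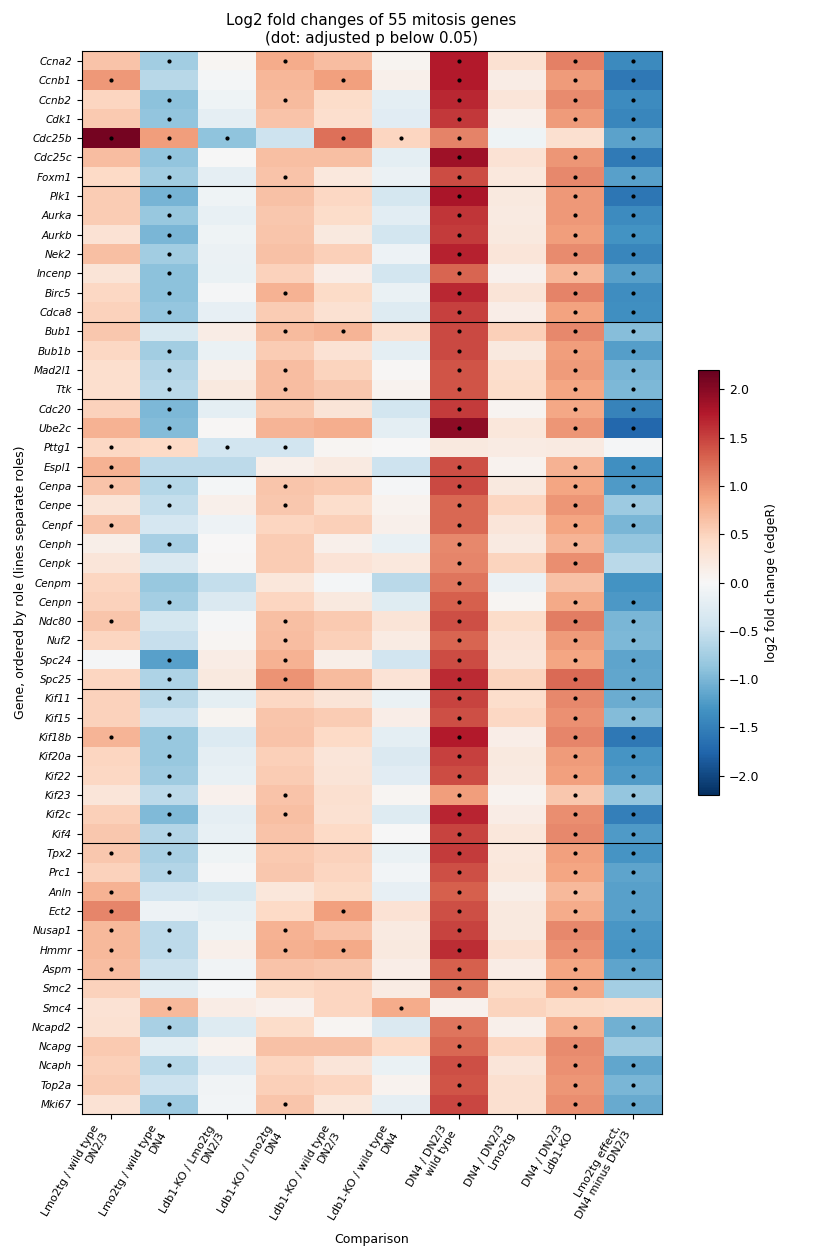
Log2 fold of each of the 55 members (rows, grouped by role) in each comparison (columns), with the colour scale in log2 units and a dot where the adjusted p was below 0.05. The stage columns are filled with calls for wild type (53) and Ldb1-KO (51) and empty for Lmo2tg, and the Lmo2tg columns change sign between DN2/3 and DN4 except for Cdc25b, Pttg1, Smc4 and Spc24.

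The cyclin, Cdk1 and phosphatase genes come first in the order of mitosis. In what follows, values are CPM in the order of the replicate numbers, which have no order of their own. Cyclin A2, encoded by Ccna2 (chr3:36564865-36572150), drives S phase and the entry into mitosis. Ccna2 read 95.9, 82.1, 97.2 and 99.6 in wild type at DN2/3 and 305, 280.3, 338 and 327 at DN4. Lmo2tg Ccna2 values were 68.3, 219, 124, 192 and 123 at DN2/3 and 97.1, 211, 156, 268 and 188 at DN4. In Ldb1-KO, Ccna2 was at 113, 162, 187, 152 and 138 at DN2/3 and 323, 337, 363, 292 and 309 at DN4. Every Lmo2tg DN4 library was below every wild type DN4 library (log2 fold -0.76, SE 0.24, adjusted p = 0.00992), and every Ldb1-KO DN4 library was above all 5 of Lmo2tg (log2 fold 0.82, SE 0.23, adjusted p = 0.0157). For that last difference the adjusted p was 0.0565 with the compared groups alone and 0.0784 without the libraries of high Cd4. Of its stretches of 101 bases, searched on both strands, 10.1% are shared with the neighbouring gene Exosc9, which overlaps it on the opposite strand. Ccnb1 (chr13:100778650-100786570) encodes cyclin B1, the main partner of Cdk1. Wild type Ccnb1 values were 53.1, 43.9, 49.4 and 51.1 at DN2/3 and 160.1, 155, 173 and 169.8 at DN4. In Lmo2tg, Ccnb1 stood at 40.6, 136, 81.8, 136 and 85.1 at DN2/3 and at 47.1, 111, 74.9, 185 and 121 at DN4. Ldb1-KO Ccnb1 values were 71.6, 103, 107, 104 and 77 at the earlier stage and 171, 185, 189, 179.9 and 166 at the later one. At DN2/3 it was higher in Lmo2tg (log2 fold 0.96, SE 0.28, adjusted p = 0.0116) although replicate 1 lay below wild type, and higher in Ldb1-KO (log2 fold 0.91, SE 0.28, adjusted p = 0.0426) without overlap. Reads of Ccnb1 can also match pseudogenes, with 14.8% of such stretches shared. Cyclin B2 comes from Ccnb2 (chr9:70407692-70421547). At DN2/3, Ccnb2 read 74.3, 51.9, 61.1 and 61.5 in wild type, 45.3, 106, 83.3, 125 and 76.2 in Lmo2tg and 65.2, 82.7, 92.2, 92.2 and 77.1 in Ldb1-KO. At DN4, Ccnb2 read 209.5, 182, 194 and 197 in wild type, 55, 94.5, 84.1, 179 and 110.1 in Lmo2tg and 169, 164, 158, 180.1 and 172 in Ldb1-KO. It fell in Lmo2tg at DN4 without overlap (log2 fold -0.91, SE 0.23, adjusted p = 0.00245) and was higher in Ldb1-KO than in Lmo2tg there (log2 fold 0.69, SE 0.22, adjusted p = 0.0371), with Lmo2tg replicate 4 inside the Ldb1-KO range.

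Cdc25b (chr2:131186949-131198497) encodes a phosphatase that removes the inhibitory phosphates of Cdk1, and it rose in Lmo2tg at both stages. The DN2/3 Cdc25b values were 53.2, 47.1, 51.7 and 48.2 in wild type, 223, 173, 222, 235 and 216 in Lmo2tg and 147, 81.4, 113, 142 and 97 in Ldb1-KO. The DN4 Cdc25b values were 117, 91.7, 120.3 and 97.8 in wild type, 169.7, 131, 223, 227 and 256 in Lmo2tg and 164, 122, 133, 164 and 157 in Ldb1-KO. All 10 Lmo2tg libraries were above all 8 wild-type libraries, both at DN2/3 (4.28-fold) and at DN4 (log2 fold 0.92, SE 0.17, adjusted p = 0.000118). In Ldb1-KO it lay between the other genotypes at DN2/3, below every Lmo2tg library of that stage and above every wild-type one (log2 fold 1.22, SE 0.17, adjusted p = 2.37e-05 against wild type). The DN4 libraries of Ldb1-KO were above wild type (log2 fold 0.47, SE 0.17, adjusted p = 0.0351) and overlapped Lmo2tg (log2 fold -0.45, SE 0.16, adjusted p = 0.059). Cdc25b rose with stage in wild type (log2 fold 1.09, SE 0.18, adjusted p = 3.47e-05), while the change did not pass the test in Lmo2tg (log2 fold -0.09) or Ldb1-KO (log2 fold 0.35). With the replicate block it did pass in Ldb1-KO (log2 fold 0.37, SE 0.09, adjusted p = 0.00409). In this group Cdk1 (log2 fold -0.87), Cdc25c, a second phosphatase (-0.87), and Foxm1, a transcription factor of G2/M genes (-0.76), also fell in Lmo2tg at DN4.

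Of the mitotic kinases, Plk1 (chr7:122159439-122169873), the Polo kinase of spindle assembly and mitotic exit, had the second largest fall at DN4. In wild type, Plk1 went from 71.9, 50.4, 61.3 and 57.7 at DN2/3 to 207, 176, 257 and 199 at DN4. For Lmo2tg, Plk1 values were 41.9, 116, 71, 133 and 82.1 at DN2/3 and 45.5, 102, 47, 198 and 123 at DN4. For Ldb1-KO, Plk1 values were 65.7, 84.8, 76.8, 111 and 77.5 at DN2/3 and 166, 136, 138, 196 and 170.2 at DN4. Lmo2tg DN4 replicates 1 and 3 were below every wild type DN2/3 library, while replicate 4 lay inside the wild-type DN4 range. In a fit of the compared groups alone the adjusted p of Plk1 in Lmo2tg at DN4 was 0.056. Aurkb (chr11:69045647-69051664) encodes Aurora B, the kinase of the chromosomal passenger complex. Aurkb read 77.7, 61, 65.1 and 69 in wild type at DN2/3 and 201, 182, 216 and 189 at DN4. Lmo2tg Aurkb values were 41.3, 107, 68, 131 and 75.1 at DN2/3 and 40, 97.4, 58.2, 189.9 and 105 at DN4. In Ldb1-KO, Aurkb was at 57.1, 86.1, 89, 94.4 and 68.2 at DN2/3 and 151, 139, 154, 159 and 146 at DN4. Its Lmo2tg DN4 range was wide, from 40.0 to 190 CPM, and overlapped wild type only through replicate 4. Incenp (chr19:9872296-9899551) encodes the scaffold of that complex. Wild type Incenp values were 192, 152, 158 and 163 at DN2/3 and 451, 359, 453 and 354 at DN4. In Lmo2tg, Incenp stood at 129.6, 235, 179.8, 284 and 187 at DN2/3 and at 117, 210.2, 147, 372 and 232 at DN4. Ldb1-KO Incenp values were 156, 186, 193, 217 and 166 at the earlier stage and 321, 279, 302, 322 and 296 at the later one. It fell in Lmo2tg at DN4 (log2 fold -0.91, SE 0.22, adjusted p = 0.00165), and every Ldb1-KO DN4 library was below every wild-type one, a difference that did not pass the test (log2 fold -0.41, SE 0.22, adjusted p = 0.157).

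Nek2 (chr1:191821444-191833050), a kinase that separates centrosomes, had the smallest fall of the 7 kinase and passenger genes. At DN2/3, Nek2 read 29.5, 25.9, 28.6 and 28 in wild type, 23.3, 58.1, 35.7, 65.7 and 39.9 in Lmo2tg and 33.2, 42.2, 45.2, 46.4 and 35.8 in Ldb1-KO. At DN4, Nek2 read 91.4, 81.2, 104 and 87.1 in wild type, 27.5, 54.7, 35, 94.5 and 57.3 in Lmo2tg and 84.1, 84.3, 78.6, 86 and 85.3 in Ldb1-KO. The 5 Ldb1-KO DN4 libraries lay close together, while Lmo2tg DN4 spanned a range that took in replicate 4 among the wild-type values (log2 fold -0.76, SE 0.25, adjusted p = 0.0138). The remaining falls at DN4 in this group were Aurka, Aurora A (log2 fold -0.83), Birc5, survivin (-0.91), and Cdca8, borealin (-0.85). Birc5 was the only member of the group called higher in Ldb1-KO than in Lmo2tg at DN4 (log2 fold 0.76, SE 0.21, adjusted p = 0.0164). All 7 had log2 folds of 0.50 to 0.76 there, each with an unadjusted p below 0.05 by edgeR's quasi-likelihood test.

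The spindle assembly checkpoint was represented by 4 genes. Bub1b (chr2:118598211-118641591) encodes BubR1, which inhibits Cdc20 until kinetochores are attached. The DN2/3 Bub1b values were 138, 120.1, 135 and 136 in wild type, 95.3, 273, 160.4, 228 and 154 in Lmo2tg and 130.4, 180.4, 186, 175 and 154 in Ldb1-KO. The DN4 Bub1b values were 334, 325, 412 and 369.5 in wild type, 109.7, 278, 159, 299.6 and 218 in Lmo2tg and 317, 305, 317, 309.6 and 309.7 in Ldb1-KO. Its Lmo2tg DN4 libraries were all below wild type (log2 fold -0.76, SE 0.23, adjusted p = 0.00773), and those of Ldb1-KO were all above Lmo2tg without passing the test (log2 fold 0.55, SE 0.22, adjusted p = 0.0932). Bub1 (chr2:127801122-127831865), the kinase that recruits checkpoint proteins to kinetochores, was the checkpoint gene with no call at DN4 in Lmo2tg (log2 fold -0.34, SE 0.24, adjusted p = 0.233). In wild type, Bub1 went from 36.2, 45.4, 53.4 and 53.4 at DN2/3 to 113, 119.6, 131 and 151 at DN4. For Lmo2tg, Bub1 values were 39.7, 123, 58, 77.8 and 57 at DN2/3 and 58.1, 130.0, 104, 116 and 101 at DN4. For Ldb1-KO, Bub1 values were 62.2, 87.7, 103, 67.2 and 75.6 at DN2/3 and 166, 174, 198, 129 and 155 at DN4. Ldb1-KO had more Bub1 than wild type at DN2/3 without overlap (log2 fold 0.75, SE 0.24, adjusted p = 0.0491) and more than Lmo2tg at DN4 (log2 fold 0.69, SE 0.23, adjusted p = 0.039). Mad2l1 (log2 fold -0.65) and Ttk, the Mps1 kinase (-0.60), fell in Lmo2tg at DN4 without overlap, and both rose in Ldb1-KO over Lmo2tg (0.68 and 0.68).

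**Figure D3:**
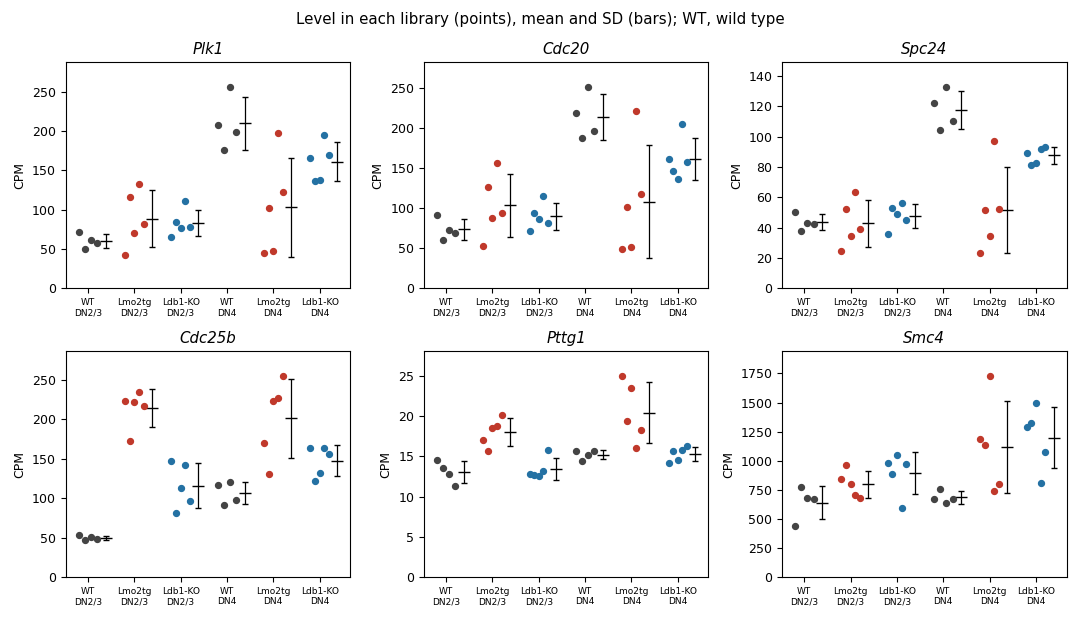
CPM per library (linear y axis from 0) of 6 members in the 6 groups, with points for libraries and bars for the mean and SD of each group. Plk1 and Spc24 show the lower Lmo2tg DN4 libraries, while Cdc25b is above wild type in all 10 Lmo2tg libraries and Pttg1 stays between 11.3 and 25.0 CPM in all 28 libraries.

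Around the anaphase-promoting complex, 3 of 4 genes rose with stage in wild type, all but Pttg1. Cdc20 (chr4:118432901-118437352) encodes the activator of the complex at anaphase. Cdc20 read 91.4, 60.8, 72.8 and 68.5 in wild type at DN2/3 and 218, 187, 251 and 196 at DN4. Lmo2tg Cdc20 values were 52.6, 127, 87.8, 156 and 94.2 at DN2/3 and 49.3, 102, 50.9, 221 and 118 at DN4. In Ldb1-KO, Cdc20 was at 71.6, 93.4, 86.7, 115 and 80.9 at DN2/3 and 161, 146, 136, 205 and 158 at DN4. It fell in Lmo2tg at DN4 (log2 fold -0.98, SE 0.31, adjusted p = 0.0106), with replicates 1 and 3 below every DN2/3 library of wild type and replicate 4 among the wild-type DN4 values. Espl1 (chr15:102296266-102324357), the gene of separase, was higher in Lmo2tg at DN2/3 (log2 fold 0.77, SE 0.29, adjusted p = 0.0489). Wild type Espl1 values were 89.2, 69.2, 75.5 and 87.9 at DN2/3 and 207, 185, 247 and 223 at DN4. In Lmo2tg, Espl1 stood at 70.2, 178, 119, 213 and 107 at DN2/3 and at 61.7, 164, 95.9, 274 and 129 at DN4. Ldb1-KO Espl1 values were 76.6, 88, 111, 112 and 73.9 at the earlier stage and 171, 138, 149, 168 and 159 at the later one. The DN4 difference between Lmo2tg and wild type did not pass the test (log2 fold -0.57, SE 0.29, adjusted p = 0.0969), with values on both sides of the wild-type range. Ube2c, the ubiquitin-conjugating partner of the complex, fell in Lmo2tg at DN4 (log2 fold -0.95, SE 0.31, adjusted p = 0.0117).

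Pttg1 (chr11:43420250-43426251), the gene of securin, which holds separase inactive, varied little. At DN2/3, Pttg1 read 14.5, 13.5, 12.8 and 11.3 in wild type, 17, 15.6, 18.5, 18.7 and 20.1 in Lmo2tg and 12.8, 12.7, 12.5, 13.2 and 15.8 in Ldb1-KO. At DN4, Pttg1 read 15.6, 14.4, 15.1 and 15.6 in wild type, 25, 19.4, 23.5, 16 and 18.2 in Lmo2tg and 14.2, 15.7, 14.5, 15.8 and 16.3 in Ldb1-KO. No stage difference in it passed the test, with a log2 fold of 0.22 in wild type, 0.18 in Lmo2tg and 0.19 in Ldb1-KO. Lmo2tg exceeded wild type at the earlier stage (log2 fold 0.46, SE 0.12, adjusted p = 0.00371) and at DN4 (log2 fold 0.43, SE 0.12, adjusted p = 0.00383), each without overlap, and Ldb1-KO was below Lmo2tg at DN4 (log2 fold -0.42, SE 0.11, adjusted p = 0.0112). In the compared groups alone, the adjusted p was 0.0572 for Lmo2tg against wild type at DN4 and 0.128 for Ldb1-KO against Lmo2tg at DN4, where leaving out the libraries of high Cd4 gave 0.0679.

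Among the 11 centromere and kinetochore genes, Spc24 (chr9:21755442-21760303) and Spc25 (chr2:69193895-69206194) encode partners in the Ndc80 complex, which binds microtubules. The DN2/3 Spc24 values were 50.6, 38, 43 and 42.7 in wild type, 24.5, 52.3, 34.6, 63.6 and 38.8 in Lmo2tg and 36.1, 52.6, 49.2, 56.1 and 45 in Ldb1-KO. The DN4 Spc24 values were 122, 104, 133 and 110.4 in wild type, 23.1, 51.3, 34.2, 97 and 52.4 in Lmo2tg and 89.3, 81.1, 82.4, 92 and 93.3 in Ldb1-KO. All 5 Lmo2tg DN4 values of Spc24 were below wild type, and at DN2/3 its log2 fold was -0.03 (adjusted p = 0.953). In wild type, Spc25 went from 22.1, 27.1, 27.7 and 27.3 at DN2/3 to 83.3, 83.8, 82.2 and 75.7 at DN4. For Lmo2tg, Spc25 values were 18.6, 58.8, 26.8, 46.6 and 30 at DN2/3 and 30.8, 60.3, 51.3, 57.1 and 55.1 at DN4. For Ldb1-KO, Spc25 values were 32.4, 46.9, 57.9, 36.5 and 36.8 at DN2/3 and 95.1, 107, 130.1, 77.1 and 91.3 at DN4. Every Ldb1-KO DN4 library had more Spc25 than every Lmo2tg library, and the Lmo2tg DN4 values were all below wild type (log2 fold -0.68, SE 0.24, adjusted p = 0.0198). Of the complex's other members, Ndc80 had a log2 fold of -0.39 in Lmo2tg at DN4 that was not called, and Nuf2 one of -0.50, also not called but with every library lower.

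Cenpe (chr3:135212537-135273611) encodes a kinetochore motor. Cenpe read 67.9, 75.2, 81.2 and 81.6 in wild type at DN2/3 and 186, 177, 191 and 185 at DN4. Lmo2tg Cenpe values were 56.2, 142, 90.9, 100.4 and 74.6 at DN2/3 and 82.8, 160.4, 151, 135 and 114 at DN4. In Ldb1-KO, Cenpe was at 88.1, 105, 132, 87 and 87.1 at DN2/3 and 221, 199, 228, 161 and 169 at DN4. It fell in Lmo2tg at DN4 without overlap (log2 fold -0.52, SE 0.19, adjusted p = 0.0271) and rose in Ldb1-KO over Lmo2tg (log2 fold 0.60, SE 0.19, adjusted p = 0.0284), again without overlap. Cenpk (chr13:104228611-104252392) encodes a subunit of the constitutive centromere network. Wild type Cenpk values were 7.98, 15.7, 15.4 and 14.5 at DN2/3 and 27.9, 32.5, 23 and 30 at DN4. In Lmo2tg, Cenpk stood at 10.4, 22.7, 15.3, 19.1 and 13.5 at DN2/3 and at 12.5, 24.9, 32.3, 24.2 and 20 at DN4. Ldb1-KO Cenpk values were 12.8, 16.3, 27.7, 12.3 and 13.3 at the earlier stage and 32.2, 33.8, 53.8, 20.6 and 26.2 at the later one. In Lmo2tg at DN4 the difference in Cenpk did not pass the test (log2 fold -0.32, SE 0.29, adjusted p = 0.366). The remaining members called lower there were Cenpa, the centromeric histone (log2 fold -0.63), Cenph (-0.73) and Cenpn (-0.75). Cenpf (-0.37) and Cenpm (-0.84) were not called.

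Of the 8 kinesin genes, 7 fell in Lmo2tg at DN4. Kif11 (chr19:37376403-37421859) encodes Eg5, which pushes spindle poles apart. At DN2/3, Kif11 read 143, 163, 172 and 169.9 in wild type, 116, 323, 210.1, 308 and 186 in Lmo2tg and 194, 195, 270.3, 188 and 142 in Ldb1-KO. At DN4, Kif11 read 466, 445, 449 and 454 in wild type, 164, 322, 308, 394 and 309 in Lmo2tg and 510.4, 393, 529, 319 and 306 in Ldb1-KO. All 5 Lmo2tg DN4 values were below the wild-type ones (log2 fold -0.60, SE 0.24, adjusted p = 0.0381), and the Ldb1-KO DN4 values ran from below wild type to above it. Kif15 (chr9:122951046-123018733), whose motor works beside Eg5, was the kinesin gene not called. The DN2/3 Kif15 values were 62.7, 77.1, 75.2 and 72.7 in wild type, 55.3, 158, 90.9, 126 and 78.2 in Lmo2tg and 88.9, 114, 149, 90.4 and 86.1 in Ldb1-KO. The DN4 Kif15 values were 189, 203, 191 and 184 in wild type, 82.9, 170.3, 153, 165 and 125 in Lmo2tg and 229, 226, 271, 161 and 178 in Ldb1-KO. Its Lmo2tg DN4 libraries were nonetheless all below wild type (log2 fold -0.46, SE 0.23, adjusted p = 0.0935). Kif2c (chr4:117159639-117182639), a microtubule depolymerase that corrects faulty attachments, fell most of the 8. In wild type, Kif2c went from 41.7, 35, 41.5 and 39.6 at DN2/3 to 125, 114, 138 and 125 at DN4. For Lmo2tg, Kif2c values were 29.1, 73.8, 48.5, 84 and 50.3 at DN2/3 and 33.7, 66.3, 46.1, 105 and 69.5 at DN4. For Ldb1-KO, Kif2c values were 40.9, 51, 56.2, 57.5 and 44.5 at DN2/3 and 107, 95.1, 104, 107 and 99.9 at DN4. Lmo2tg and wild type did not overlap at DN4 (log2 fold -0.97, SE 0.24, adjusted p = 0.00169), and Kif2c was higher in Ldb1-KO than in Lmo2tg (log2 fold 0.67, SE 0.23, adjusted p = 0.0454). The remaining kinesins that fell were Kif18b (log2 fold -0.84), Kif20a (-0.84), Kif22 (-0.79), Kif4 (-0.64) and Kif23 (-0.58). Kif20a shares 21.3% of its stretches of 101 bases with the neighbouring gene Cdc23, and Kif4 shares 13.3% with Pdzd11, both of which overlap on the opposite strand.

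Spindle and cytokinesis genes were the group most often called at DN2/3. Tpx2 (chr2:152847964-152895321) encodes a spindle assembly factor that activates Aurora A. Tpx2 read 108, 96.9, 112 and 108 in wild type at DN2/3 and 315, 285, 340.3 and 299.6 at DN4. Lmo2tg Tpx2 values were 89.8, 234, 139, 205 and 136 at DN2/3 and 109, 209, 154, 273 and 205 at DN4. In Ldb1-KO, Tpx2 was at 120.3, 159, 182, 155 and 136 at DN2/3 and 291, 287, 308, 267 and 258 at DN4. It was higher in Lmo2tg at DN2/3 (log2 fold 0.60, SE 0.21, adjusted p = 0.035) with replicate 1 below wild type, and lower at DN4 without overlap (log2 fold -0.71, SE 0.21, adjusted p = 0.0069). Ect2 (chr3:27097222-27153878) starts contraction of the cleavage furrow through RhoA. Wild type Ect2 values were 48, 53.2, 54.4 and 56 at DN2/3 and 142, 141, 143 and 136 at DN4. In Lmo2tg, Ect2 stood at 71.7, 155, 110.5, 129.9 and 87.5 at DN2/3 and at 78.8, 143, 149, 152 and 124 at DN4. Ldb1-KO Ect2 values were 88.9, 100.5, 132, 88.3 and 86.1 at the earlier stage and 178, 184, 213, 144 and 157 at the later one. At DN2/3 every transgenic library, Lmo2tg or Ldb1-KO, was above every wild-type library, and at DN4 the Lmo2tg difference from wild type did not pass the test (log2 fold -0.12, SE 0.18, adjusted p = 0.618). Hmmr (chr11:40701395-40733422), a spindle-pole protein gene, changed in both directions in Lmo2tg. At DN2/3, Hmmr read 31.8, 37.4, 43.7 and 41 in wild type, 35.9, 92.8, 60.2, 74.9 and 52.1 in Lmo2tg and 56, 71.4, 86.6, 63.6 and 66.7 in Ldb1-KO. At DN4, Hmmr read 115, 118, 125 and 121 in wild type, 48.7, 91.6, 84.1, 97.4 and 78.9 in Lmo2tg and 138, 148, 164, 112 and 127 in Ldb1-KO. It exceeded wild type at the earlier stage (log2 fold 0.71, SE 0.20, adjusted p = 0.00825) and was below it at DN4 (log2 fold -0.58, SE 0.20, adjusted p = 0.017), and in Ldb1-KO at DN4 every library was above those of Lmo2tg. Anln, Aspm and Nusap1 also rose in Lmo2tg at DN2/3 (log2 folds 0.77, 0.68 and 0.72), while Prc1 was not called (0.51).

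The condensin and chromosome genes held the most abundant members. On a scale of mean CPM per kilobase of exons over the 28 libraries, Smc4 stood at 174, Top2a at 99.1, Mki67 at 96.1 and Ncapd2 at 88.4, and the lowest of the 55 were Cdc25c at 3.92 and Cenpk at 4.17. Mki67 (chr7:135689784-135716361) encodes the Ki-67 antigen that coats mitotic chromosomes. The DN2/3 Mki67 values were 561, 515, 583 and 628 in wild type, 443, 1111, 655, 831 and 504 in Lmo2tg and 576, 728, 904, 650.0 and 549.7 in Ldb1-KO. The DN4 Mki67 values were 1460.0, 1492, 1654 and 1727 in wild type, 609, 1206, 914, 1064 and 760.4 in Lmo2tg and 1592, 1396, 1617, 1192 and 1162 in Ldb1-KO. It rose with stage in wild type (log2 fold 1.47, SE 0.23, adjusted p = 1.79e-05) and Ldb1-KO (log2 fold 1.03, SE 0.20, adjusted p = 0.000424), and it fell in Lmo2tg at DN4 without overlap (log2 fold -0.80, SE 0.21, adjusted p = 0.00281).

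Smc4 (chr3:69004738-69034623), an ATPase subunit of both condensin complexes, was 1 of the 3 members higher in Lmo2tg at DN4. In wild type, Smc4 went from 439.7, 774, 679.6 and 673 at DN2/3 to 674, 760.2, 637 and 673 at DN4. For Lmo2tg, Smc4 values were 848, 961, 801, 704 and 678 at DN2/3 and 1188, 1140.3, 1732, 738 and 799.7 at DN4. For Ldb1-KO, Smc4 values were 985, 887, 1046, 596 and 972 at DN2/3 and 1292, 1327, 1493, 811 and 1074 at DN4. Its stage difference did not pass the test in wild type (log2 fold 0.10, SE 0.22, adjusted p = 0.752), Lmo2tg (log2 fold 0.49, SE 0.20, adjusted p = 0.0991) or Ldb1-KO (log2 fold 0.42, SE 0.20, adjusted p = 0.119). With the replicate block it was again not called in wild type (log2 fold 0.12, SE 0.14, adjusted p = 0.466) and was called in Lmo2tg (log2 fold 0.43, SE 0.13, adjusted p = 0.0144) and Ldb1-KO (log2 fold 0.42, SE 0.13, adjusted p = 0.0121). The later stage had more Smc4 than wild type in Lmo2tg (log2 fold 0.71, SE 0.21, adjusted p = 0.00765) and in Ldb1-KO (log2 fold 0.81, SE 0.21, adjusted p = 0.0071), the latter without overlap. Its condensin partner Smc2 had a log2 fold of -0.24 in Lmo2tg at DN4 and 1.15 with stage in wild type. Ncapd2 (log2 fold -0.72) and Ncaph (-0.63) fell in Lmo2tg at DN4, and Ncapg (-0.21) and Top2a, topoisomerase II alpha (-0.46), were not called.

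Other genes of the cell cycle were read from further lists. Of 80 other mitosis genes tested, 71 rose with stage in wild type (median log2 fold 1.10), 3 in Lmo2tg (0.21) and 58 in Ldb1-KO (0.68, with 1 lower). Of all genes, 21.1%, 8.32% and 12.3% were called higher in these 3 comparisons. In Lmo2tg against wild type, 22 of the 80 were higher and none lower at DN2/3 (median 0.32), against 15.1% and 14.4% of all genes. At DN4, 37 were lower and 1 higher (median -0.40), against 23.5% and 28.9% of all genes. The cyclin F gene Ccnf led the falls at DN4 (log2 fold -1.21, adjusted p = 6.38e-05). In Ldb1-KO against Lmo2tg, 1 was lower at DN2/3 (median -0.04) and 34 were higher at DN4 (median 0.47), against 7.22% and 5.85% of all genes. Of 43 genes of the G1/S step and DNA replication, 42 rose with stage in wild type, 3 in Lmo2tg and 30 in Ldb1-KO. The shares of all genes were again 21.1%, 8.32% and 12.3%. In Lmo2tg against wild type 2 of these 43 were higher at DN2/3 (median 0.11), against 15.1% of all genes. At DN4, 36 were lower (median -0.78), against 23.5% of all genes, among them the cyclin E1 gene Ccne1 (log2 fold -1.22, adjusted p = 7.91e-05). In Ldb1-KO over Lmo2tg at DN4, 11 of the 43 were higher (median 0.40), against 5.85% of all genes. Of 15 genes that restrain division, 8 were higher and 2 lower in Lmo2tg at DN2/3, against 15.1% and 14.4% of all genes, and the p21 gene Cdkn1a was lower there (log2 fold -4.41, adjusted p = 1.16e-08). At DN4, 11 were higher and 2 lower in Lmo2tg, against 28.9% and 23.5% of all genes, with the antiproliferative gene Btg1 at a log2 fold of 3.07 (adjusted p = 1.16e-07) and the p27 gene Cdkn1b at 1.33 (adjusted p = 2.66e-07). In Ldb1-KO against wild type at DN4, where the members' median was -0.13, 11 of the 15 were also higher and 1 lower, against 18.2% and 14.4% of all genes, with Btg1 at 2.46 (adjusted p = 7.63e-06) and Cdkn1b at 1.19 (adjusted p = 4.23e-06).

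Markers of cells beyond the DN gate also differed between Lmo2tg and wild type at both stages. Of all genes, 15.1% were called higher and 14.4% lower in Lmo2tg than in wild type at DN2/3, and 28.9% and 23.5% at DN4. For Ldb1-KO against wild type these shares were 6.98% and 2.58% at DN2/3, and 18.2% and 14.4% at DN4. For Ldb1-KO against Lmo2tg at DN4 they were 5.85% and 8.71%. At DN2/3, 5 of 11 mature T cell markers were higher and none lower in Lmo2tg than in wild type, with sums of 1349 to 1866 CPM against 837 to 1074 CPM, and Cd8a had a log2 fold of 6.02 (adjusted p = 2.66e-08). In Ldb1-KO at DN2/3, 8 of the 11 were higher than in wild type and none lower, with sums of 1140 to 1725 CPM. Of 10 double-positive thymocyte markers, which share Cd4 and Cd8a with the mature T cell list, 3 were higher and 4 lower in Lmo2tg at DN2/3, and 5 were higher and 1 lower at DN4. Their DN4 sums were 1566 to 1743 CPM in wild type, 1628.5 to 4296 in Lmo2tg and 1689 to 4127 in Ldb1-KO, where 6 of the 10 were higher than in wild type and none lower. All 11 mature T cell markers tested were higher in Lmo2tg than in wild type at DN4, and their summed level was 1123.5 to 3362 CPM against 444 to 583 CPM. Of 11 B cell markers 9 were higher, with sums of 52.7 to 323 CPM in Lmo2tg DN4 and 38.8 to 52.7 CPM in wild type DN4. In Ldb1-KO at DN4 the mature T cell markers summed to 1178.5 to 2129 CPM and the B cell markers to 36.9 to 83.7 CPM, and against Lmo2tg 7 of the 11 B cell markers and 2 of the 11 mature T cell markers were lower. Lmo2tg DN4 replicate 1, with the highest Cd4 and Cd8a of its group (422 and 742.5 CPM), had the lowest summed mitosis level of its group, 5602 CPM. Ldb1-KO DN4 replicate 2, with 329 CPM of Cd4 and 713 CPM of Cd8a, had a summed mitosis level of 12494 CPM, inside the range of its group. Of the defining B cell markers, Pax5 was at 0 in every wild-type library. Of 8 myeloid, 10 NK and innate lymphoid, 4 gamma-delta T, 7 dendritic, 4 erythroid and 4 stromal markers tested, 4, 6, 1, 3, 2 and 2 were higher and 0, 2, 0, 1, 0 and 0 lower in Lmo2tg than in wild type at DN4. These counts stand against 28.9% of all genes higher and 23.5% lower, and the gamma-delta T count is near that share. In Ldb1-KO the gamma-delta T markers summed to 385 to 1673 CPM at DN4 and 321 to 1564.5 CPM at DN2/3. Wild type had 228.5 to 328 and 202 to 211.5 CPM. Cd163l1 had a log2 fold of 2.75 there at DN4 (adjusted p = 0.0108). Of the 8 myeloid markers, 5 were higher and 0 lower in Ldb1-KO than in wild type at DN2/3, against 6.98% and 2.58% of all genes. Summed levels in Lmo2tg DN4 and wild type DN4 were 13.7 to 26.9 and 7.77 to 9.23 CPM for myeloid, 266 to 500.1 and 374 to 521.5 CPM for NK and innate lymphoid, and 7.78 to 30.3 and 2.37 to 3.27 CPM for erythroid markers. Depth moved too, with a median total of 45.85 M counts in Lmo2tg DN4 against 71.21 in wild type DN4 and 58.76 in Ldb1-KO DN4. The part of these cells, also in the DN2/3 results, and of depth in the mitosis results was not tested.

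**Figure D4:**
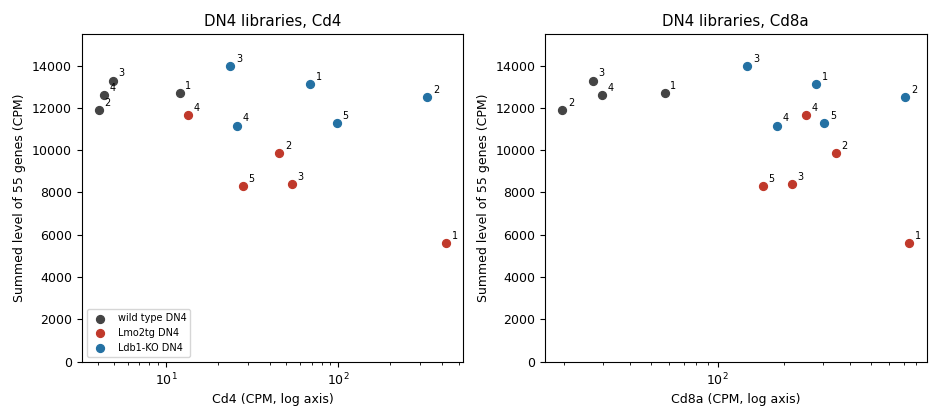
Summed CPM of the 55 members (y axis, linear from 0) against Cd4 (left) and Cd8a (right) in CPM on log axes, for the 14 DN4 libraries, with replicate numbers beside the points. Lmo2tg replicate 1 is farthest right in both panels and lowest at 5602 CPM, while Ldb1-KO replicate 2, the next to the right in both, is at 12494 CPM.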

How the data were processed

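RNA of mouse thymocytes was measured in 28 libraries, 4 wild type, 5 Lmo2tg and 5 Ldb1-KO at each of 2 stages. The design text gives 4 Ldb1-KO replicates, while the sample labels give 5, and all 5 were used. Libraries were made with a TruSeq RNA kit and sequenced as paired reads of 101 bases, per the labels' protocols. Alignment to mm10 with STAR 2.5.2a and counting with featureCounts 1.4.6-p3 are named in the submitters' processing notes. The values the authors deposited are raw read counts per gene symbol, and 0 columns had no sample. The sources used here do not name the annotation, strand setting or treatment of multi-mapped reads. Exons of 18 of the 55 members overlap those of another gene in GENCODE M21, and 8 members share over 5% of their 101-base stretches with other genes on either strand.

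The counts entered edgeR 4.0.16 (R 4.3.3): TMM, filterByExpr by group, and 1 robust quasi-likelihood model of 6 groups. Tests were two-sided with Benjamini-Hochberg adjustment over the 14371 genes tested, and a gene was called at an adjusted p below 0.05. The SE is the absolute log2 fold divided by the square root of F. Levels are CPM with TMM-scaled library sizes. The script was tested on simulated data. Alternatives were DESeq2 1.42.0, another scaling, no filter, the compared groups only, a replicate block and leaving out each library. The alternative without the libraries of high Cd4 was added after seeing the data. No 2 replicates were copies (chi-square per degree of freedom at least 28.5).

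Replicate numbers in the labels pair DN2/3 with DN4 within a genotype: deviations from group means correlated at 0.153 to 0.332 in wild type, 0.513 to 0.65 in Lmo2tg and 0.289 to 0.531 in Ldb1-KO. The sources used here do not say why.

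The 55 members and the gene lists were chosen with earlier results of these data known. Values in every library are given, in each of 8 roles, for the member with the highest mean CPM and those with the largest and smallest log2 fold of Lmo2tg against wild type at DN4. They are also given for the 3 largest rises and falls of each main comparison and for members called against the majority. The values of 1 marker gene are not reported here.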

Additional observations from a re-analysis of the deposited data

Results flagged for a closer look

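The effect of Lmo2tg differed between the stages by the interaction test, with 48 of the 55 members lower at DN4 than at DN2/3, against 11.0% of all genes called lower and 14.7% higher.

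Single libraries stood apart from the rest of their group by Dixon's ratio of gap to range in 5 of the 150 groups examined. Chance alone sets about 1 in 20 groups apart in this way. Cenpk, of the centromere network, read 7.98 CPM in wild type DN2/3 replicate 1, below a highest value of 15.7 CPM, and 27.7 CPM in Ldb1-KO DN2/3 replicate 3, above a lowest value of 12.3 CPM. Spc25, of the Ndc80 complex, read 22.1 CPM in wild type DN2/3 replicate 1, where the highest was 27.7 CPM. Pttg1, the securin gene, read 15.8 CPM in Ldb1-KO DN2/3 replicate 5, where the lowest was 12.5 CPM. Nek2, a centrosome kinase gene, read 78.6 CPM in Ldb1-KO DN4 replicate 3, where the highest was 86.0 CPM.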

How the results depend on the processing

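Counts of called members are given. Fitting the compared groups only gave 8 for Lmo2tg against wild type at DN2/3, 3 for Ldb1-KO against Lmo2tg at DN4, and 36 and 21 for Ldb1-KO against wild type at DN2/3 and DN4. The replicate block gave 22, 37 and 15 in the first 3 of these. Of all genes, 17.4%, 8.13% and 10.5% were called higher and 17.5%, 9.96% and 6.55% lower in these 3 blocked fits. The block also gave 25 and 52 for the stage difference in Lmo2tg and for the stage difference of the Ldb1-KO effect. Library names of Lmo2tg and Ldb1-KO run in sets of equal replicate number. Between these genotypes, same-number correlations were 0.029 to 0.199 at DN2/3 and -0.075 to 0.338 at DN4. There, 2 of 5 libraries at each stage correlated best with their own number. Between wild type and either transgenic genotype, 0 of 4 did at each stage. Whether the numbers pair the genotypes is not stated in the sources used here. The block moved no other count by over 1.5 times. DESeq2 gave 8 for Ldb1-KO against wild type at DN2/3. Without the libraries of high Cd4 the count was 2 for Ldb1-KO against Lmo2tg at DN4 and 1 for the stage difference in Lmo2tg. The cause of these shifts was not tested.

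Leaving out 1 library gave 6 to 40 for Lmo2tg against wild type at DN2/3 and 29 to 47 at DN4, 2 for Ldb1-KO against Lmo2tg at DN2/3 and 6 to 44 at DN4, and 3 to 5 and 1 to 2 for Ldb1-KO against wild type. For stage it gave 52 to 53 in wild type, 0 to 11 in Lmo2tg and 45 to 50 in Ldb1-KO, and 38 to 52 and 0 to 13 for the stage differences of the Lmo2tg and Ldb1-KO effects. Of 226 values of 15 single-gene results under alternatives, 220 kept direction and call, 6 lost the call (adjusted p from 0.056 to 0.128, for Plk1, Pttg1 and Ccna2) and 0 reversed. Counts over all genes moved by over 1.5 times as follows. With the compared groups only, Lmo2tg against wild type at DN4 from 7532 to 4947, Ldb1-KO against Lmo2tg at DN4 from 2092 to 681, Ldb1-KO against wild type at DN2/3 from 1374 to 3037 and the stage difference in Lmo2tg from 2208 to 321. With the block the last 2 were 2449 and 5569, and the stage difference in Ldb1-KO went from 4039 to 6934. The stage difference of the Lmo2tg effect went from 3684 to 2146, 7106 and 2446 (compared groups, block, without high Cd4), and that of the Ldb1-KO effect from 195 to 85, 1933 and 94, with 389 by DESeq2. Leaving out 1 library moved Ldb1-KO against wild type at DN2/3 to 764, 877 and 880 (wild type DN2/3 replicates 1, 3 and 4) and 863 (Ldb1-KO DN2/3 replicate 3), and at DN4 from 4680 to 2855 (wild type DN4 replicate 3). The stage difference of the Lmo2tg effect became 2412 without wild type DN2/3 replicate 2, and without Lmo2tg DN4 replicate 4 the stage difference in Lmo2tg became 3450 and that of the Ldb1-KO effect 624.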
